A study of Homo sapiens with 6 samples.

Results

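The 9 genes described here are the MHC class I genes HLA-B, HLA-C and HLA-E with B2M and the regulator NLRC5, and the MHC class II genes HLA-DRA and HLA-DPA1 with the regulator CIITA and the invariant chain gene CD74. They are 9 of 19974 protein-coding genes on chromosomes 1 to 22 and X. Every ATAC-seq peak within 20 kb of a gene body was taken, and overlapping peaks of all libraries were merged, which gave 111 regions of 378213 in the whole series, 55 at class I and 56 at class II genes. ATAC-seq marks open chromatin by the insertion of sequencing adapters by the Tn5 transposase. The cells were KMS-11, a human multiple myeloma line of plasma cell origin, with a wild-type genotype label. The 3 control libraries carry the treatment label LentiV2 and the 3 ATF4 knockdown libraries the label LentiV2_ATF4g3, so that all 3 knockdown libraries share a single guide against ATF4, a transcription factor of the stress response. The labels number biological replicates in each group and do not say whether these were separate cultures or clones, so the p-values measure the spread between these libraries, which may be technical.

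MHC class I molecules present peptides from inside the cell on nearly every nucleated cell, as a heavy chain such as HLA-B or HLA-C paired with β2-microglobulin. MHC class II molecules present peptides from the endosomal pathway and are typical of B cells, dendritic cells and macrophages. Genes of both classes carry an upstream module of X1, X2 and Y boxes, where RFX, proteins of the CREB and ATF family and NF-Y bind, and NLRC5 and CIITA are recruited to it as the coactivators of class I and class II transcription. PRDM1, the regulator of plasma cell differentiation, is known to shut off CIITA.

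The promoter sequences are printed to show where letters matching these boxes stand relative to the open chromatin. RefSeq windows on GRCh38.p14, the assembly of hg38, matched 5 of the 9 genes (HLA-B, HLA-C, B2M, CD74 and HLA-DPA1, the last with 2 windows). HLA-E, NLRC5, HLA-DRA and CIITA had no entry. The 250 bases before each annotated start, except the outer start of HLA-DPA1, are given 5′ to 3′ on the gene's strand. Every match to a searched motif is in capitals. The searched motifs, on both strands, were ACNGATG for the X1 core, TGACG for the X2 core, TGACGTCA for the CRE that contains it, ATTGG for the Y box, TGATGNAA for the ATF4 composite site, GGGANTNCC for NF-kB, GAAANNGAA for the interferon response element and TTCNNNGAA for the GAS element. A match is a description of the letters, not evidence of binding, and the sequences are of the reference and not read from these cells. The windows are chr6:31357180-31357429 (minus strand) for HLA-B, chr6:31272093-31272342 (minus) for HLA-C, chr15:44711267-44711516 (plus) for B2M, chr5:150412911-150413160 (minus) for CD74 and chr6:33073650-33073899 (minus) for the internal start of HLA-DPA1.
HLA-B: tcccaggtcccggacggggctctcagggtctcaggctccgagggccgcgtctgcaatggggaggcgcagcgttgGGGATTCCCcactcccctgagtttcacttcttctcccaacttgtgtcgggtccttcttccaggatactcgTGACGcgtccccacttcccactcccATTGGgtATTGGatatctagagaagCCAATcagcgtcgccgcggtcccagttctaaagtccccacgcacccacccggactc
HLA-C: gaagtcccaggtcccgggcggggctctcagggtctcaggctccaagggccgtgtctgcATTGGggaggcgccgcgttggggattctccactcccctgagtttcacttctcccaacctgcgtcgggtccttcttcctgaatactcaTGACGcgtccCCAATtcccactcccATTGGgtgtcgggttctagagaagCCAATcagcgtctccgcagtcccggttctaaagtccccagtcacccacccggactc
B2M: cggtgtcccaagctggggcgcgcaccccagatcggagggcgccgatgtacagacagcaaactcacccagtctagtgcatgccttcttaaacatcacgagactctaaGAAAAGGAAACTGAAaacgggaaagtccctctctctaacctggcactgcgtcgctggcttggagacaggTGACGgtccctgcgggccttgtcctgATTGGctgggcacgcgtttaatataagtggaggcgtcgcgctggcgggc
CD74: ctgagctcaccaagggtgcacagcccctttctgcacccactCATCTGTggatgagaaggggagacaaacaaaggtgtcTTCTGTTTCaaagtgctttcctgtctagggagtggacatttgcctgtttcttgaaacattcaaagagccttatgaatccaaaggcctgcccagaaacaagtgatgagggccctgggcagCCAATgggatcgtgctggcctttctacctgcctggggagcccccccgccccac
HLA-DPA1: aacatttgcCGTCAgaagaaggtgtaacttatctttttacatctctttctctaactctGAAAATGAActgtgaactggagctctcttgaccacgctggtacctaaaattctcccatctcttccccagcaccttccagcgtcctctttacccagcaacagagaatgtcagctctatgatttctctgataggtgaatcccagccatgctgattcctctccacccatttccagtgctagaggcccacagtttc

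The heavy chain genes HLA-B and HLA-C shared an X2 core, 106 and 105 bases before the start, and Y box matches nearer to it, the nearest on the opposite strand at 56 bases in both. B2M had an X2 core at 75 and a Y box at 49 bases, with overlapping interferon element matches at 144 and 138 bases. HLA-B also had an NF-kB match at 176 bases. CD74 had an X1 core at 209, an interferon element at 172 and a Y box at 53 bases, all on the opposite strand. The internal HLA-DPA1 start had an X2 core on the opposite strand at 241 bases and an interferon element at 192 bases. The outer HLA-DPA1 start, whose bases are not printed, had an X2 core at 57 and an NF-kB match at 46 bases, both on the opposite strand. The letters are common: of 35116 RefSeq windows of the same length, 24.6% held the X2 core, 34.6% the Y box, 7.65% the X1 core, 8.11% the interferon element and 4.35% the NF-kB motif. No member window held the CRE (1.85% of all windows), the ATF4 composite site (3.62%) or the GAS element (7.66%).

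The strongest summits at HLA-B, HLA-C, B2M and CD74 lay within 105 bases before the start. The strongest summit at HLA-B fell 91, 91 and 99 bases before the start in the controls and 100, 105 and 87 bases in the knockdown libraries, close to the X2 core. At HLA-C it fell 81, 84 and 78 against 84, 85 and 81 bases before the start, next to a Y box. At B2M it fell 101, 91 and 96 against 99, 98 and 82 bases before the start, upstream of the X2 core and the Y box. At CD74 it lay between the Y box and the start, 32, 17 and 25 against 27, 32 and 24 bases before it. In each of these 4 genes the positions of the 2 groups overlapped. All 300 bases of the windows of HLA-B, HLA-C and B2M were covered by peaks in every library, and 271 to 300 of those of CD74. The window at the outer start of HLA-DPA1 had no covered base in any library, and the internal one had 217, 175 and 278 in control libraries and 249, 244 and 282 after ATF4 knockdown.

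Some facts of the libraries bear on every value below. The lists held 220250 to 238246 summits each. Peaks numbered 150004, 161433 and 135070 in control libraries and 170210, 171685 and 163937 after ATF4 knockdown. They covered 70.7, 70.3 and 67.0 Mb against 63.6, 63.0 and 63.9 Mb. The library-wide background, which rises with depth and was taken as the commonest local value, was 3.19, 2.79 and 3.52 overlapping tags in control libraries and 2.51, 2.15 and 2.51 after ATF4 knockdown. The caller's −log10 q values move with depth and were tested between groups only as ranks within a library. Counts and filters at a −log10 q cutoff still depend on depth. All 8 plasma cell markers had, in all 6 libraries, a peak within 1 kb of a gene end whose −log10 q was 2 or more, against 3 of 6 B cell markers (MS4A1 had no peak in any library), 4 of 6 T and NK cell, 1 of 6 myeloid, 3 of 4 dendritic cell and 4 of 6 epithelial and stromal markers. The best peak at ATF4 itself had a −log10 q of 302, 332 and 296 in control libraries and 112, 119 and 197 after ATF4 knockdown, which is no check of the knockdown, since accessibility measures neither RNA nor protein.

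MHC genes of both classes lay in open chromatin in all libraries. Of the 111 regions, 47 were listed in all 6 libraries (25 class I, 22 class II) and 41 had a −log10 q of at least 2 in all 6 (22 and 19). Over all 378213 merged regions, 68145 were listed in all 6 and 62076 had a −log10 q of at least 2 in all 6. A further 46 member regions were listed in 1 library, 16 in a control and 30 in a knockdown library, and 44 of these had a −log10 q under 5. The knockdown lists as a whole also held more peaks, as given above. The split of all merged regions listed in 1 library was not computed. No region was found in all 3 controls and absent from all knockdown lists, or the reverse, where over all merged regions 0.858% and 0.0584% were. The library lists held 65, 64 and 61 member regions in control libraries and 67, 69 and 64 after ATF4 knockdown, and those with −log10 q values of 10 or more numbered 42, 44 and 44 against 37, 33 and 39. The count at 10 was not made over the whole lists. At a −log10 q of 5 or more, the whole lists held 85475, 93508 and 83450 peaks in control libraries and 61281, 63196 and 70770 after ATF4 knockdown. The nearest to a control-only region was CD74 region 12, inside the gene at chr5:150409848-150410055, chosen after its values were seen. Its −log10 q was 18.7, 33.1 and 16.8 in the controls and 6.28 in knockdown replicate 3, with no peak in the other knockdown libraries, and it counts as control-only without that replicate. HLA-E region 3, with weak peaks in all 3 controls and in knockdown replicate 1, counts as control-only without that one.

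The amount of open DNA around the genes was measured as the bases covered by peaks within 20 kb of the gene body, scaled to the library's total covered length, and tested over all 19242 genes covered in at least 3 libraries with limma. None of the 9 genes passed an adjusted p of 0.05, where 1.04% of all genes were called lower and 1.2% higher in the knockdown libraries. At an unadjusted p under 0.05, 1 of the 9 was lower and 0 higher, beside 11.6% and 7.68% of all genes. The median log2 difference was 0.03 over the class I genes, 0.14 over the class II genes and −0.03 over all genes tested. The groups did not overlap for 1 gene in the lower direction (NLRC5) and 1 in the higher (HLA-C), beside 15% and 9.04% of all genes. The windows are shared in part with neighbours: ends of PATL2 and TRIM69 lie in that of B2M, CETP and CPNE2 in that of NLRC5, HLA-DPB1 in that of HLA-DPA1, DEXI and CLEC16A in that of CIITA, and TCOF1 in that of CD74.

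**Figure D1:**
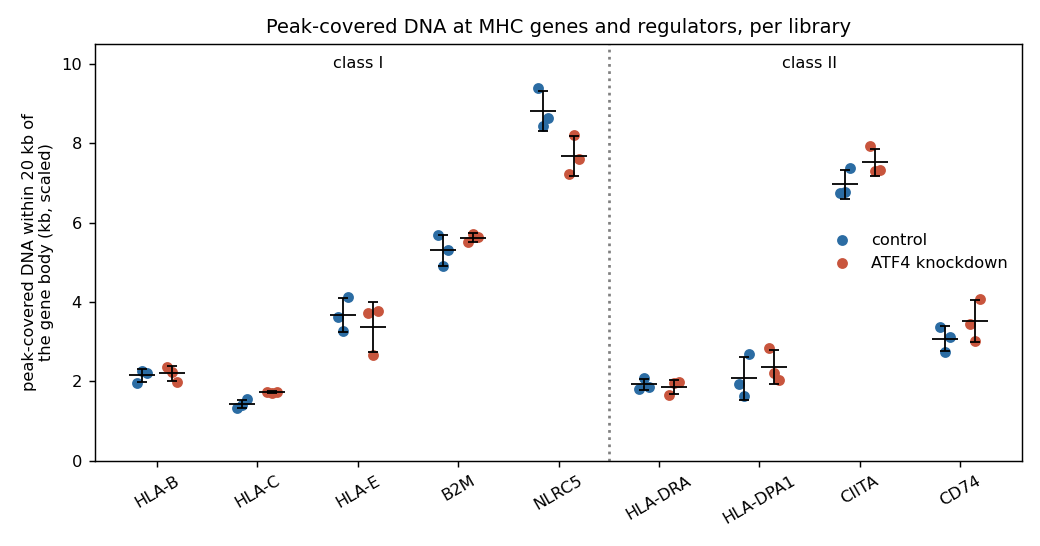
Peak-covered DNA within 20 kb of each gene body, in scaled kb, for the 3 control (blue) and 3 ATF4 knockdown libraries (red); points are libraries, bars the mean and SD. The groups overlap at 7 of the 9 genes. NLRC5 is lower and HLA-C higher in each knockdown library than in each control, and neither passed the adjusted test. At HLA-C, the covered bases outside the start region come from weak regions listed in 1 or 2 libraries.

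The rank of a region was its position within its library by −log10 q among the 68145 regions listed in all 6 libraries, from 0 to 100, and normal scores of the ranks were tested with limma over all of those regions. Of the 47 member regions, 2 ranked lower and 2 higher at an adjusted p under 0.05, beside 4.24% and 3.92% of all regions. The member share of 8.51% is near that of all shared regions, 8.16%. The groups did not overlap at 9 regions in the lower and 8 in the higher direction, beside 13.4% and 13.8%. Within 1 kb of a coding gene's end, 0 of 16 member regions ranked lower and 1 higher (1.95% and 7.82% of all such regions), and away from ends 2 of 31 ranked lower and 1 higher (4.81% and 2.96%). Both regions that ranked lower are inside NLRC5, and both that ranked higher are at class II genes, 1 inside HLA-DPA1 and 1 near the end of CIITA.

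**Figure D2:**
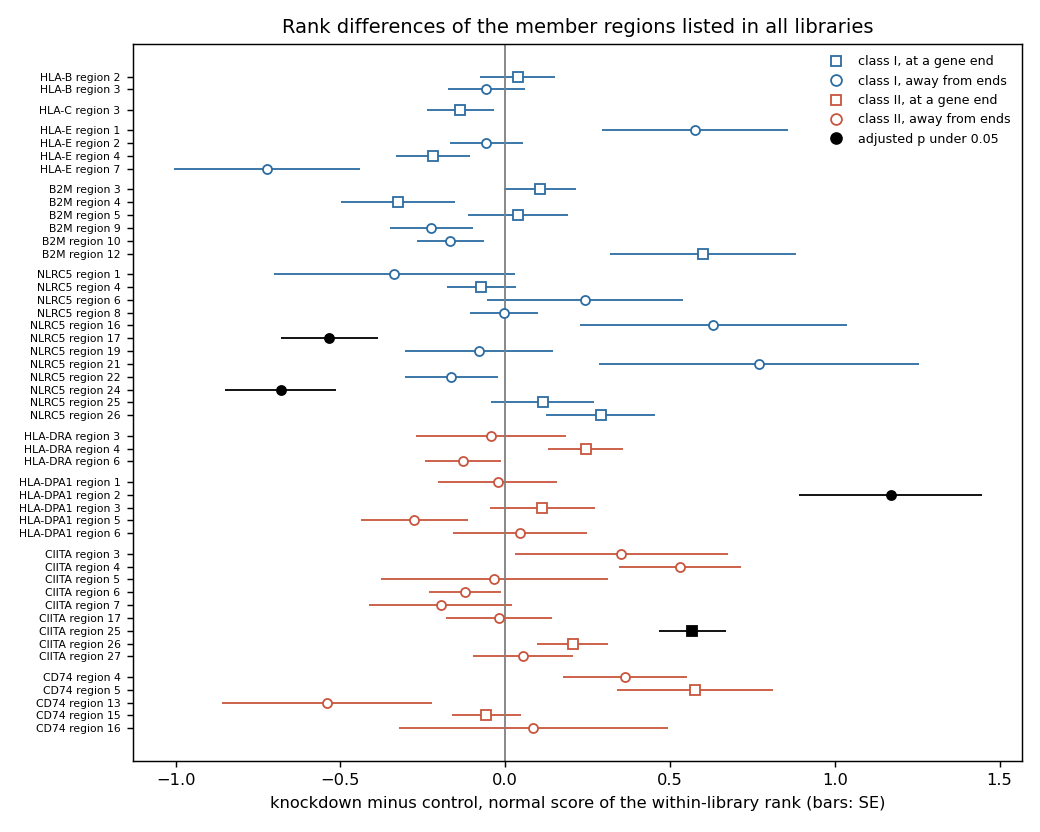
Difference in rank between knockdown and control, in normal-score units with its standard error, for the 47 member regions listed in all libraries; squares lie within 1 kb of a coding gene's end, circles elsewhere, and filled black marks passed an adjusted p of 0.05. NLRC5 regions 17 and 24 lie to the left of 0, HLA-DPA1 region 2 and CIITA region 25 to the right.

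HLA-B (chr6:31353875-31357179) and HLA-C (chr6:31268749-31272092) encode classical class I heavy chains, and HLA-E (chr6:30489509-30494194) a non-classical one that is recognised by NK cell receptors. These genes are polymorphic and resemble each other, and the handling of reads that map to several of them is not given in the sources used here, so their values are uncertain to that extent. The region over the start of HLA-B (region 2, chr6:31356175-31357772) had a −log10 q of 118, 120 and 166 in control libraries and 56.6, 58.8 and 80.3 after ATF4 knockdown. Its fold enrichment over local background was 11.6, 12.5 and 13.4 against 9.98, 9.91 and 11.4. By rank it stood at 78.3, 75.6 and 86.0 against 80.2, 80.5 and 83.1, and the groups overlapped. HLA-B region 3, 9.58 kb beyond that end, was as strong by −log10 q, at 126, 153 and 129 against 37.6, 55.9 and 89.3, and higher in fold, at 21.5, 26.9 and 21.5 against 13.1, 17.4 and 20.4. Its rank difference was −0.06 normal-score units (SE 0.12, adjusted p = 0.823).

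The region over the start of HLA-C (region 3, chr6:31271138-31272717) ranked at 88.3, 88.9 and 91.5 in control libraries and 85.4, 87.6 and 87.8 after ATF4 knockdown. The knockdown values lay below the controls without overlap, and the difference did not pass (−0.14, SE 0.10, adjusted p = 0.456). Listed peaks covered 1420, 1264 and 1559 bp of the region against 1299, 1457 and 1406 bp, and the groups overlapped. It was the 1 region, of 4 at HLA-C, that was listed in all libraries. The covered length within 20 kb of HLA-C was 1430 ± 106 bp in control libraries and 1724 ± 25.6 bp after ATF4 knockdown (SD, n = 3 each). It was higher in all 3, with an adjusted p of 0.365 by limma. Outside region 3, knockdown replicates 1, 2 and 3 had 361 bp in region 2, 150 bp in region 1 and 270 bp in region 4, unscaled. Their −log10 q was 2.20, 0.93 and 1.65, and control replicate 2 had 232 bp in region 2 (2.58). At HLA-E, the start region (region 4, chr6:30489157-30490747) had a −log10 q of 182, 257 and 217 against 71.4, 105 and 81.0, and ranked at 87.9, 92.7 and 91.1 against 84.6, 90.8 and 83.3. HLA-E region 7, 14.7 kb beyond the gene, had the lowest mean rank in the knockdown libraries of the HLA heavy chain regions listed in all libraries, with a −log10 q of 22.5, 23.2 and 24.0 against 4.10, 4.21 and 2.88, and did not pass (−0.72, SE 0.28, adjusted p = 0.116).

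B2M (chr15:44711517-44718145) encodes the light chain that every class I molecule needs at the surface. Its start region (region 3, chr15:44711017-44712259) also holds an end of PATL2 and ranked at 88.3, 92.6 and 91.1 in control libraries and 93.2, 94.1 and 89.4 after ATF4 knockdown. The groups overlapped, with a difference of 0.11 normal-score units (SE 0.11, adjusted p = 0.611). Regions 4 and 5, by the start and the far end of the gene, had a −log10 q of 42.4, 60.7 and 53.2 against 14.2, 10.8 and 15.6, and of 48.9, 80.5 and 64.3 against 38.7, 21.1 and 25.9, and neither passed by rank. Region 4 ranked lower in each knockdown library than in each control, and the groups overlapped at region 5 (limma adjusted p = 0.267 and 0.915). B2M region 10, 10.3 kb beyond the gene at chr15:44728459-44729647, was the strongest of all 111 regions by −log10 q, at 334, 328 and 331 against 153, 139 and 171. It ranked at 96.9, 96.0 and 97.0 against 95.5, 94.8 and 95.2, lower in each knockdown library, and did not pass (−0.17, SE 0.10, adjusted p = 0.343). Its pileup over background was 0.625 of that in the controls. Its fold was 11.9, 11.995 and 11.3 against 11.3, 11.2 and 11.1, and listed peaks covered 1175, 1153 and 1170 bp of it against 1119, 1157 and 1176 bp. It lies nearer to TRIM69 than to B2M. The covered length at B2M was 5302 ± 391 bp in control libraries and 5623 ± 102 bp after ATF4 knockdown (SD, n = 3 each). It did not pass (log2 difference 0.08, SE 0.08, adjusted p = 0.625).

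**Figure D3:**
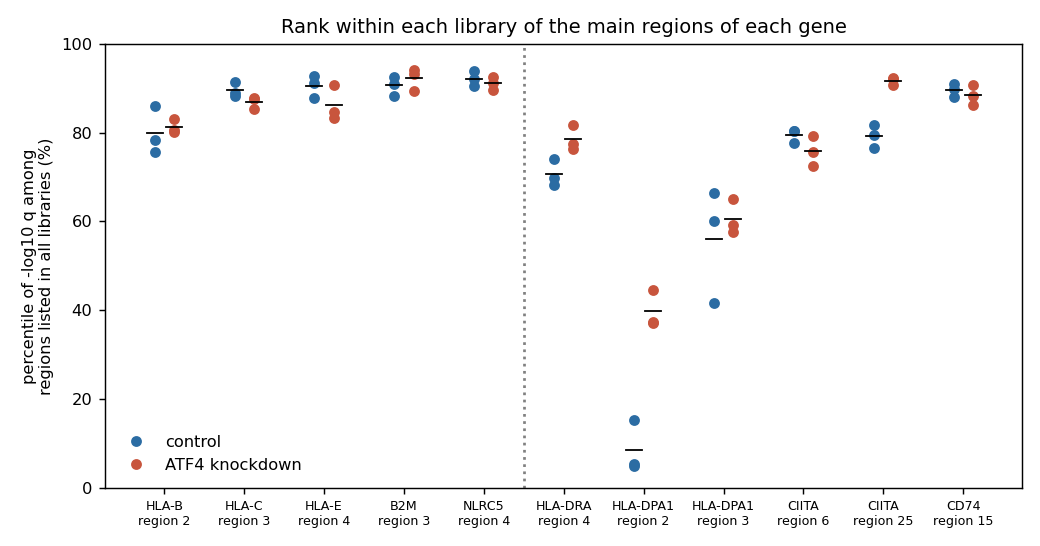
Rank percentile by −log10 q within each library for 11 member regions, 1 or 2 per gene; points are libraries (blue control, red ATF4 knockdown) and short lines group means. The start region of NLRC5 runs from 89.6 to 93.9; HLA-DPA1 region 2 and CIITA region 25 are higher in each knockdown library than in each control.

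NLRC5 (chr16:56989557-57083520), the class I coactivator, had the most regions, 29, of which 12 were listed in all libraries. At 94.0 kb it is also the longest of the genes described here, so its window is the largest. Its start region (region 4, chr16:56989116-56990021) was at a like rank in both groups: 92.2, 93.9 and 90.6 in control libraries and 91.2, 92.6 and 89.6 after ATF4 knockdown. NLRC5 region 8, 24.998 kb inside the gene, was nearly as strong, with a −log10 q of 192, 216 and 189 against 77.8, 94.5 and 126, and ranked at 89.0 ± 0.478 against 88.8 ± 2.52 (SD, n = 3 each; limma adjusted p = 0.987). Region 25, by the far end, had a −log10 q of 45.9, 51.3 and 41.2 against 20.9, 19.4 and 24.3. By rank it stood at 51.1, 48.5 and 48.3 against 56.3, 52.2 and 53.0, higher in each knockdown library, and did not pass (adjusted p = 0.719). Region 5, by the start, was listed in control replicate 1 alone. Further inside, NLRC5 region 17 (chr16:57041432-57042704) ranked at 68.0, 71.4 and 70.4 in control libraries and 39.5, 50.2 and 59.2 after ATF4 knockdown, below every control. It passed at a difference of −0.53 (SE 0.15, adjusted p = 0.024). Its fold was 10.48, 13.3 and 11.2 against 5.39, 6.27 and 7.95, and listed peaks covered 1213, 903 and 1109 bp of it against 645, 880 and 553 bp. The groups were apart in both, in covered bases only by 903 against 880 bp. Mean fold was lower after ATF4 knockdown at most member regions listed in all libraries. The share of all regions with groups apart in fold or covered bases was not computed.

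NLRC5 region 24 (chr16:57071781-57072614), also inside the gene, ranked at 63.4, 59.6 and 57.5 in control libraries and 32.1, 33.4 and 35.4 after ATF4 knockdown. It passed at −0.68 (SE 0.17, adjusted p = 0.0124), with a fold of 13.7, 13.997 and 11.6 against 5.28, 5.64 and 6.32. Both calls depend on single libraries. Without 1 library, region 17 did not pass in 4 of the 6 cases, with an adjusted p of 0.0813, 0.118 and 0.0983 without control replicates 1, 2 and 3 and 0.0786 without knockdown replicate 1, and ranked by fold enrichment it gave 0.159. Region 24 gave 0.0986, 0.0698 and 0.0507 without control replicates 1, 2 and 3. Over the 10 alternatives the adjusted p ran from 0.0094 to 0.159 for region 17 and from 0.0114 to 0.0986 for region 24, with the direction kept in each. The covered length at NLRC5 was 9393, 8441 and 8629 bp in control libraries and 7215, 8204 and 7608 bp after ATF4 knockdown, the groups apart, with a log2 difference of −0.20 (SE 0.08, adjusted p = 0.206). Without scaling to the library total it passed (−0.32, adjusted p = 0.0342), on a scale where the median of all genes shifts to −0.15, and the adjusted p ran from 0.0342 to 0.498 over the 16 alternatives.

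**Figure D4:**
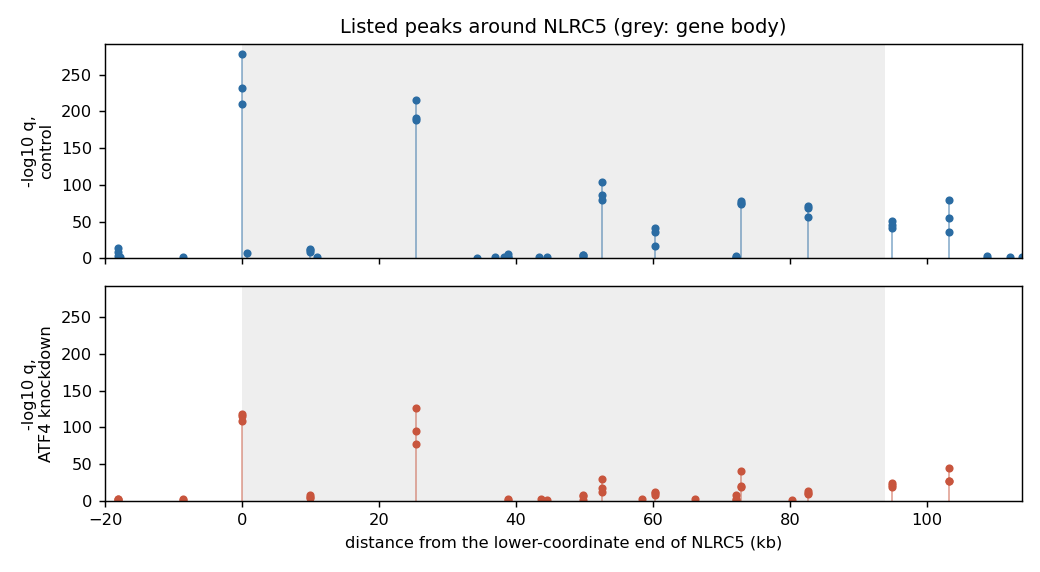
Listed peaks around NLRC5 in the controls (upper panel) and the ATF4 knockdown libraries (lower panel), as −log10 q against the distance in kb from the gene's lower-coordinate end; grey marks the gene body. The peaks over the start and the tall one 24.998 kb inside the gene (region 8) lead in both panels; heights move with library depth and are not compared between panels.

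HLA-DRA (chr6:32439887-32445046) encodes the α chain of HLA-DR. It had a peak over its start in all libraries (region 4, chr6:32439283-32440314), with a −log10 q of 80.7, 99.5 and 100 in control libraries and 46.5, 62.1 and 61.3 after ATF4 knockdown. By rank it stood at 68.2, 69.9 and 74.1 against 76.3, 81.7 and 77.5, higher in each knockdown library, and it did not pass (0.24, SE 0.11, adjusted p = 0.197). HLA-DRA region 6, 17.5 kb beyond the gene, was of like strength, at 93.6, 115 and 104 against 34.9, 37.6 and 42.8, and ranked at 72.4, 74.3 and 75.0 against 69.5, 70.4 and 68.9. It was lower in each knockdown library and did not pass (−0.13, SE 0.12, adjusted p = 0.548). The covered length of HLA-DRA was 1922 ± 147 bp in control libraries and 1865 ± 179 bp after ATF4 knockdown (SD, n = 3 each; adjusted p = 0.902).

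HLA-DPA1 (chr6:33064569-33080748) encodes the α chain of HLA-DP and is arranged head to head with HLA-DPB1. At its outer annotated end the single nearby peak, region 4, was listed in 1 library with a −log10 q of 2.0. The region with the highest median −log10 q was region 3 (chr6:33075334-33076495), at 34.9 beside 34.8 for region 5, and in control replicate 3 it was weaker than regions 1, 5 and 6. It holds the start of HLA-DPB1 and ranked at 60.1, 66.4 and 41.7 in control libraries and 57.7, 59.1 and 65.0 after ATF4 knockdown, the groups overlapping. HLA-DPA1 region 2 (chr6:33073402-33073881) covers most of the internal start sequence given above. Its −log10 q was 4.73, 6.20 and 11.2 in control libraries and 10.9, 14.96 and 14.2 after ATF4 knockdown, and it was the weakest of the 5 HLA-DPA1 regions listed in all libraries in each control. It ranked at 5.0, 5.3 and 15.3 against 37.2, 44.6 and 37.4, higher in each knockdown library, and passed at 1.17 (SE 0.28, adjusted p = 0.0089). Its fold was 3.64, 4.23 and 5.18 against 5.46, 7.0 and 6.20, and listed peaks covered 217, 175 and 279 bp of it against 302, 442 and 294 bp. The call was lost without control replicate 1 (adjusted p = 0.0505) or control replicate 2 (0.0545), and over the 10 alternatives the adjusted p ran from 0.00801 to 0.0545. Its summits lay 61, 54 and 86 bases before the internal start in control libraries and 73, 31 and 91 after ATF4 knockdown.

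CIITA (chr16:10866206-10943021), the class II coactivator, is transcribed from several promoters that differ between dendritic cells, B cells and cells exposed to interferon-γ. No peak was listed within 1 kb of its lower-coordinate end in any library. The strongest region away from the ends of other genes was CIITA region 6 (chr16:10876658-10878041), 10.452 kb inside the gene and chosen after its values were seen. Its −log10 q was 115, 144 and 129 in control libraries and 54.2, 40.7 and 56.6 after ATF4 knockdown, and it ranked at 77.8, 80.5 and 80.3 against 79.3, 72.4 and 75.7, with the groups overlapping. CIITA region 4, inside the gene 4.76 kb from that end, had a rank difference of 0.53 (SE 0.18) and did not pass (adjusted p = 0.0742).

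CIITA region 25 (chr16:10941543-10942707), the region of CIITA with the highest median −log10 q, lies 0.314 kb from its higher-coordinate end and holds the annotated start of DEXI, which runs on the minus strand. Its −log10 q was 136, 139 and 110 in control libraries and 118, 114 and 123 after ATF4 knockdown, and its fold 9.32, 9.96 and 7.52 against 10.6, 10.2 and 10.3. It ranked at 81.8, 79.5 and 76.6 against 92.3, 92.1 and 90.7, higher in each knockdown library. It passed at 0.57 (SE 0.10, adjusted p = 0.001), and in each of its 10 alternatives (0.000703 to 0.0291). The pileup at its summit, which moves with depth, was 230, 223 and 217 overlapping tags in control libraries and 182, 180 and 194 after ATF4 knockdown. Divided by the library's background, its mean was 71.2 against 77.8. That is a ratio of 1.09, beside a median of 0.688 over all shared regions. Its summits lay 31, 35 and 37 bases before the start of DEXI in the controls and 18, 29 and 5 bases in the knockdown libraries. The 250 bases before that start, chr16:10942469-10942718 on the minus strand, held 3 Y box matches on the opposite strand, 89, 64 and 36 bases before it, in capitals here, and no X1 or X2 match.
DEXI: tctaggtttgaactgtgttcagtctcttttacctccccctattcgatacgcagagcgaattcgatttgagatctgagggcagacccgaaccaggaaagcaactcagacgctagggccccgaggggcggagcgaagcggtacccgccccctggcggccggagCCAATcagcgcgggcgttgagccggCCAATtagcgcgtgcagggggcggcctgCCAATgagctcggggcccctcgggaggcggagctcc

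**Figure D5:**
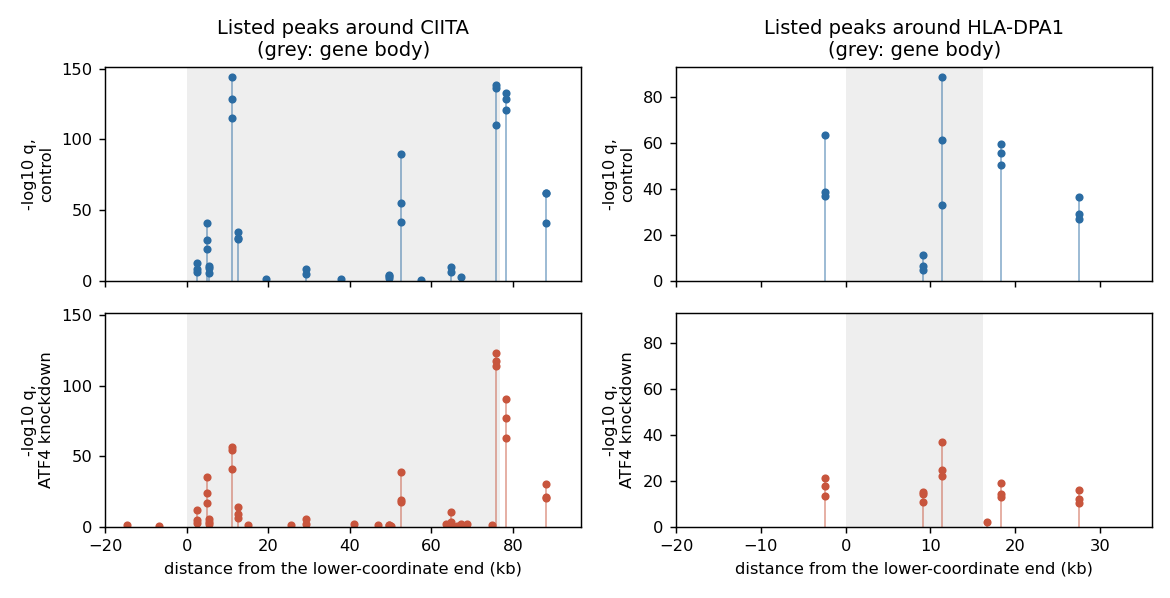
Listed peaks around CIITA (left) and HLA-DPA1 (right) in the controls (upper panels) and the ATF4 knockdown libraries (lower panels), as −log10 q against the distance in kb from the lower-coordinate end; grey marks the gene body. CIITA region 25, just inside the higher-coordinate end, runs from 110 to 139 over the 6 libraries, and HLA-DPA1 region 2, inside the gene, has the lowest control values of that gene's regions; heights move with library depth.

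CD74 (chr5:150401639-150412910) encodes the invariant chain that occupies the class II peptide groove during transport. Its start region (region 15, chr5:150412276-150413407) had a −log10 q of 216, 200 and 201 in control libraries and 105, 89.5 and 94.4 after ATF4 knockdown. By rank it stood at 91.0, 88.0 and 89.8 against 90.8, 88.3 and 86.2, with the groups overlapping (−0.06, SE 0.10, adjusted p = 0.796). Near its other end, regions 8, 9 and 10 were each listed in 1 or 2 libraries with a −log10 q of at most 3.4. CD74 region 14, next to the start region and inside the gene, was chosen after its values were seen. It had a −log10 q of 40.9, 27.6 and 20.8 in the controls, no peak in knockdown replicate 1, and 9.03 and 11.2 in the others. The covered length at CD74 was 3072 ± 319 bp against 3512 ± 529 bp (SD, n = 3 each; adjusted p = 0.491).

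Class I and class II genes were set side by side without a test. Of the class I regions, 2 of 25 ranked lower and 0 higher, with a median rank difference of −0.06 normal-score units. Of the class II regions, 0 of 22 ranked lower and 2 higher, with a median of 0.05, where the median of all shared regions was 0.00. Both class I calls lie inside 1 gene, NLRC5. In either direction 8% of class I and 9.09% of class II regions passed, near the 8.16% of all shared regions. At gene ends the medians were 0.04 over 10 class I and 0.22 over 6 class II regions, beside 0.06 over all such regions. Away from ends they were −0.08 over 15 class I and −0.02 over 16 class II regions, beside −0.02 over all such regions. Of the 6 class II regions at gene ends, CIITA region 25 (0.57) lies at ends of both CIITA and DEXI. CIITA region 26 (0.20) lies at CLEC16A, CD74 region 5 (0.58) at TCOF1 and HLA-DPA1 region 3 (0.11) at HLA-DPB1, away from the member's own ends. HLA-DRA region 4 (0.24) and CD74 region 15 (−0.06) lie at an end of their own gene alone. The summit pileup divided by the library's background was lower in the knockdown libraries at 40 of the 47 regions, with a median ratio of 0.691, beside 0.688 over all shared regions. The ratio was 0.657 for class I and 0.748 for class II, and ran from 0.359 at NLRC5 region 24 to 1.75 at HLA-DPA1 region 2.

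The other genes of the pathway showed no called change in covered length either. Of 15 further class I genes (heavy chains, peptide transporters, immunoproteasome subunits and chaperones), 0 passed in either direction, with a median log2 difference of 0.06. The smallest p-values were those of TAP1, a subunit of the peptide transporter (0.17, SE 0.08, adjusted p = 0.303), and PSMB8, an immunoproteasome subunit (0.15, SE 0.09, adjusted p = 0.373), whose windows overlap. Of 13 further class II genes 0 passed, with a median of 0.08. HLA-DRB5, HLA-DQA2 and HLA-DQB2, 3 of the 13, had 0 bp covered in each control and were tested only through the knockdown libraries, so they could only come out higher; over the other 10 the median was 0.06. CTSS, the cathepsin that degrades the invariant chain, had 2965, 3421 and 3631 bp covered in control libraries and 4169, 4136 and 4225 bp after ATF4 knockdown, higher in all 3 (0.31, SE 0.10, adjusted p = 0.116). HLA-DQB2 had 446, 254 and 312 bp in the knockdown libraries, part of it shared with the window of HLA-DQA2, and no p is given for it.

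Of 16 shared regulators, 0 passed, with a median of −0.09. RFXAP, a subunit of the RFX complex that binds the X1 box, had 2195, 2244 and 2076 bp covered in control libraries and 1607, 1720 and 1683 bp after ATF4 knockdown. It was lower in all 3 (−0.34, SE 0.12) and did not pass (adjusted p = 0.146). IRF1, an interferon response factor, differed by −0.16 (SE 0.08, adjusted p = 0.324). The median over all genes tested was −0.03.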

How the data were processed

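ATAC-seq peak lists of 6 KMS-11 libraries, 3 control and 3 ATF4 knockdown, were used. The submitters' processing notes name MACS2 as the caller and hg38 as the build. Not given in the sources used here: versions, settings, the aligner, read filters and any Tn5 offset, which would move or widen all peaks of a library alike. The deposited fold enrichment is a ratio of summit pileup to local background, the deposited −log10 p and −log10 q values come from the caller's test within a library, and the deposited score, capped at 1000, was used only to check the columns. The depth behind a value is unknown beyond the pileup, which the deposited −log10 p and fold gave back for 100% of summits.

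Genes and promoter sequences came from RefSeq on GRCh38.p14. The gene table gives no exons or introns, so these were not told apart. Peaks overlapping by 1 bp were merged over all libraries. Covered bases within 20 kb of each gene, scaled to the mean library total, were compared as log2(value + 200 bp), which understates changes at genes with little covered DNA. Ranks of the highest −log10 q were converted to normal scores. Both were fitted with limma 3.58.1 in R 4.3.3 (eBayes, trend and robust, Benjamini-Hochberg) over all genes or regions, after checks on simulated data. Leaving out a library, other windows, filters, pseudocounts, scalings and rankings were tried. The genes and lists were chosen with earlier results of these data known. Named by rule are regions within 1 kb of a gene's ends, with the highest median −log10 q, or found in 1 group alone. NLRC5 regions 8, 17 and 24, HLA-DPA1 region 2, HLA-DRA region 6, HLA-E regions 3 and 7, CIITA regions 4 and 6 and CD74 regions 12 and 14 were chosen after their values were seen. The 2 genes with the smallest p stand for each pathway list with none called.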

Additional observations from a re-analysis of the deposited data

How the results depend on the processing

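In all but 2 of the 16 alternatives, none of the 9 genes was called. With peaks at a −log10 q of at least 5, 2 members were called higher, B2M (0.30, adjusted p = 0.0342; 0.0342 to 0.993 over its 16 alternatives) and HLA-B (0.37, adjusted p = 0.0470; 0.0470 to 0.971), in a setting where 3134 genes were called higher, 700 lower and the median of all genes was 0.13. Without scaling, 1 member was called lower (NLRC5) and 2103 genes. Directions that turned, with the cause not tested, were B2M (−0.11 with 50 kb, −0.039 without scaling), CD74 (−0.038 with 50 kb), HLA-C (−0.17 with 50 kb), CIITA (−0.016 without scaling), HLA-B (−0.063 with 5 kb, −0.085 without scaling), NLRC5 (0.10 at a −log10 q of 5) and HLA-DRA (0.043 with 50 kb, 0.052 with lists of equal length, 0.057 and 0.18 at a −log10 q of 2 and 5). HLA-B, HLA-DRA and HLA-E also turned on leaving out 1 library (HLA-B −0.026 to 0.097, HLA-DRA −0.084 to 0.033, HLA-E −0.21 to 0.032). The counts over all genes, 230 higher and 201 lower, became 83 and 61 with 5 kb, 567 and 525 with 50 kb, 43 and 29 with lists of equal length, 131 and 98 with no filter, 19 and 37 at a −log10 q of 2, and 6 to 188 and 1 to 163 without 1 library, lowest without control replicate 3. Over ranks, 2672 higher and 2891 lower became 1622 higher by fold enrichment, and 1137 to 2384 and 979 to 3147 without 1 library; members went from 2 and 2 to 1 to 3 higher and 0 to 2 lower. Without 1 library, 0 to 1 member regions were control-only, and 41 to 45 were in every library. With peaks covering at least 50% of a region, an alternative chosen after seeing the data, 26 were. The planned 50% overlap of peaks gave the same values by construction. Whether replicate numbers pair libraries was not settled, and the main fits left them unpaired. Same-number correlations were weak, at 0.03, 0.05 and 0.04 for genes and 0.04, 0.00 and 0.01 for ranks. The gene values were each highest with their own number, and all those with other numbers were negative. With a replicate block 297 genes were higher and 249 lower, and 2730 and 3151 regions. Weak regions are missed first at lower depth.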
